A study of Mus musculus with 2 samples.

Results

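S100a4-high CD4 T cells of the mouse spleen are described here, a group labelled as Th1-like effector memory cells. They were chosen by counts of unique molecular identifiers (UMIs, which mark single captured mRNA molecules): at least 1 UMI of Cd4, at least 2 of S100a4 and none of Cd8a, Cd8b1, Foxp3, Cd79a, Trdc, Zbtb16, Fcer1g or Mki67. The gate found 116 cells among 14372 with 500 or more genes detected and mitochondrial UMIs below 10%, out of 15303 cell barcodes. Of these, 52 came from the library of Prmt5 CKO mice and 64 from the library of control mice. The study profiled CD3+ T cells, sorted by flow cytometry from spleens of C57BL/6 mice, with 10x Genomics 3′ chemistry V3.1. Each of the 2 libraries pooled 3 mice, and no cell was mapped to its mouse. CKO stands for a floxed Prmt5 gene deleted through a CD4-Cre transgene. That driver is active in developing thymocytes that express CD4, so CD8 cells lose the gene too. The genotype field reads CD4-Cre+ PRMT5fl/fl for both samples, and the groups were taken from the sample titles. With 1 library per group there is no test, and genotype, mouse and library preparation cannot be told apart. Intervals are exact, at 95%, and cover counting error only.

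Effector memory CD4 cells have met antigen, have left the circulation between lymph nodes and respond fast when they meet it again. Th1 cells are those that make interferon gamma, under the transcription factor T-bet, encoded by Tbx21, and they carry the chemokine receptor CXCR3. S100A4 is a small calcium-binding protein tied to cell motility, and in T cells its mRNA marks memory and effector states. PRMT5 is the main enzyme that places symmetric dimethylation on arginine residues, with histones and the Sm proteins of the spliceosome among its substrates.

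Promoters were taken from RefSeq on GRCm38.p6 for 13 genes that mark or lead these cells, and 11 matched an entry. The 250 bases before each start site are the window searched, on both strands. A match is a description of letters, not a site. The RUNX core TGTGGT lies in 5 of the 11 windows (S100a6, Cxcr3, Cxcr6, Nkg7 and Runx2) and in 14.0% of 32851 promoters. The T-box motif GGTGTGA, of the class that T-bet binds, was found in the Nkg7 window alone of the 11 and in 3.33% of all promoters. AP-1 letters, TGANTCA, and the core of the interferon-stimulated response element (GAAA, any 2 bases, GAAA) were in none of the 11, against 6.75% and 2.98% of all promoters. Below are the windows of the gene that defines the gate (chr3:90603520-90603769, plus strand), of Cxcr6, which of the 3 chemokine receptor genes searched differed most in detection between the libraries (chr9:123806227-123806476, plus strand) and of the one window with both RUNX and T-box letters (chr7:43436888-43437137, plus strand). Capitals mark the motif letters on either strand, and the S100a4 window holds none.
S100a4: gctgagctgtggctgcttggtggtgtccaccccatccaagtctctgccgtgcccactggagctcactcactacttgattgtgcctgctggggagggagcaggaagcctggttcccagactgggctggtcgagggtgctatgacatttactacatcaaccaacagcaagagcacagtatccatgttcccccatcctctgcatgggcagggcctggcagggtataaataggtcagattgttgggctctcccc
Cxcr6: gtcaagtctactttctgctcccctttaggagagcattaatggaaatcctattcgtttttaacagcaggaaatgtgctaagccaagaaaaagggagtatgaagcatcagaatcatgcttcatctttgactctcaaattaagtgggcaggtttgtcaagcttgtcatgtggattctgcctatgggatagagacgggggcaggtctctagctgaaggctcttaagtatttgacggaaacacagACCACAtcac
Nkg7: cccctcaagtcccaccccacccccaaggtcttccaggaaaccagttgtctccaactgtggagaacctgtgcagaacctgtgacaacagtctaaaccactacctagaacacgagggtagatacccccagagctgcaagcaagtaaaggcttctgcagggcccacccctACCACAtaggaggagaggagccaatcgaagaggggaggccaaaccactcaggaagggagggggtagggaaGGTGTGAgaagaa

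The libraries held 52033914 UMIs in kept CKO cells and 47273030 in kept control cells, with medians of 6045 and 6282 per cell. S100a4-high cells were deeper, with a median of 8083.5 UMIs in CKO (range 2203 to 21892) and 6806.5 in control (3707 to 17318). Summed over the gated cells, the CKO library had 455915 UMIs and the control library 465927. Among all barcodes 11 sequences occurred in both libraries, and 0 S100a4-high cells carried such a barcode. Each library held cells with Y-linked UMIs (28.9% and 24.9% of kept cells) and cells with Xist UMIs (43.4% and 48.2%), so each pool contained both sexes. Doublets were not removed, and 3 CKO and 2 control S100a4-high cells had over 15000 UMIs.

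Prmt5, the targeted gene (chromosome 14, 54507187 to 54517525, GRCm38, minus strand), had 2 UMIs in 2 of the 52 CKO cells and 6 UMIs in 6 of the 64 control cells. Scaled to all UMIs of the gated cells (CPM), that is 4.39 against 12.9, a log2 ratio of -1.55 with an interval from -4.89 to 0.93. At this depth no difference was detectable within the S100a4-high cells. In CD4 cells with 0 S100a4 UMIs, gated alike, 46 CKO and 110 control UMIs gave a log2 ratio of -1.58 (-2.11 to -1.07). A 3′ tag can lie outside the deleted exons, so the Prmt5 count does not measure the deletion itself.

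S100a4 itself was read as a description, since it chose the cells. It had 1129 UMIs in CKO and 750 in control cells (2476 and 1610 CPM). UMIs per cell ran from 2 to 85 in CKO with a median of 15, and from 2 to 56 in control with a median of 9. Scaled to 10000 UMIs of the cell, the medians were 20.9 and 13.1. Cells with at least 20 S100a4 UMIs numbered 23 of 52 in CKO (44.2%) and 9 of 64 in control (14.1%). The ranges overlapped from 2 to 56 UMIs, and the CKO cells reached higher. Lower and upper quartiles were 6 and 31.5 in CKO and 4 and 13 in control. Just inside the threshold, 4 CKO and 11 control cells had exactly 2 S100a4 UMIs. Just outside it, 40 CKO and 42 control cells had 1. Those cells with 1 UMI had Cxcr3 in 0% of CKO and 21.4% of control cells, and Ccl5 in 12.5% and 14.3%. With 2 UMIs, Cxcr3 and Ccl5 were each detected in 2 of the 4 CKO cells and in 4 of the 11 from control. No B cell reached 2 S100a4 UMIs in either library (0 of 55 and 0 of 51).

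**Figure D1:**
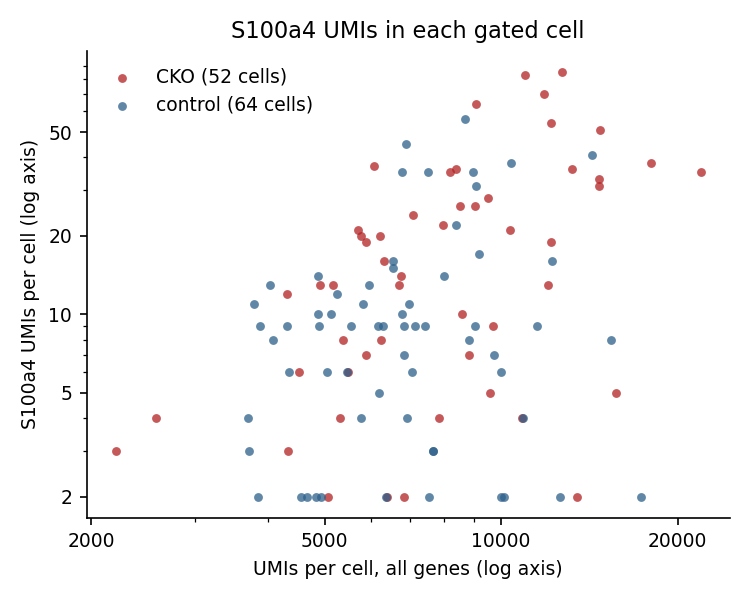
S100a4 UMIs (y axis, log scale) against all UMIs (x axis, log scale) for each S100a4-high CD4 cell, 52 of CKO and 64 of control. CKO cells reach 85 S100a4 UMIs and control cells 56, and the points of both libraries mix over most of the range.

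The 5 markers of the label beside S100a4 were read as a description. The cells were chosen with earlier results of these data known, so these markers are no independent check of the label. The chemokine gene Ccl5 was detected in 28 CKO cells (53.8%, 39.5 to 67.8) and 27 control cells (42.2%, 29.9 to 55.2). Cxcr3 was found in 27 CKO (51.9%) and 36 control cells (56.2%), and Ifng, the interferon gamma gene, in 19 (36.5%) and 11 (17.2%). Bhlhe40, a transcription factor that Th1 cells need for cytokine output, was found in 37 (71.2%) and 24 (37.5%), and Cxcr6, a receptor of tissue-homing T cells, in 33 (63.5%) and 12 (18.8%). At least 3 of the 5 markers were detected in 27 CKO cells (51.9%) and 16 of 64 control cells, and none in 3 and 11. After thinning each cell to 2000 UMIs, the shares in CKO and control were 46.2% and 28.1% for Ccl5, 26.9% and 28.1% for Cxcr3, 13.5% and 9.38% for Ifng, 32.7% and 17.2% for Bhlhe40, and 36.5% and 9.38% for Cxcr6. B cells, which should lack Cxcr3 and Ifng, had 0% for both in both libraries, and Ccl5 in 10.9% and 3.92%, at median depths of 4009 and 4236 UMIs. CD4 cells with 0 S100a4 UMIs had Ccl5 in 12.1% and 13.7%, Cxcr3 in 0.806% and 5.55%, and Ifng in 0.201% and 2.17%.

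Markers of other helper fates were read beside those of Th1 cells. Tbx21 was detected in 12 CKO cells (23.1%) and 9 control cells (14.1%), against 0.302% and 0.766% of the CD4 cells without S100a4 UMIs. Il12rb2, the chain of the interleukin-12 receptor that Th1 cells induce, was found in 0 of 52 and 0 of 64 cells. A floor of 3 counts sets the share of cells with a UMI at up to 5.77% and 4.69%, and puts no limit on the share that expresses the gene. The Th2 cytokine genes Il4, Il5 and Il13 and the follicular cytokine gene Il21 were also at 0 in both, with the same floor. Gata3, the Th2 factor that other T cells also express, was present in 51.9% and 62.5% of cells. Maf, a transcription factor of follicular helper, Th17 and other effector cells, was detected in 71.2% of CKO and 70.3% of control cells, against 5.24% and 13.3% of those without S100a4. In CKO that equals the share of Bhlhe40, the highest of the 5 label markers, and in control it exceeds all 5. Genes typical of regulatory T cells were also present, though cells with Foxp3 UMIs were left out by the gate. Ikzf2, the factor Helios, was found in 36.5% and 51.6% of cells against 7.05% and 8.42%, and Ctla4 in 44.2% and 54.7% against 10.8% and 21.9%. At least 1 of the 5 markers on the regulatory T cell list was detected in 39 CKO and 51 control cells. At least 1 of 5 Th17 markers (Il17a, Il17f, Ccr6, Il23r, Il22) was found in 11 CKO cells (21.2%) and 4 control cells (6.25%). Of 4 memory markers, Il2rb, the interleukin-2 and interleukin-15 receptor chain, was in 67.3% and 67.2% against 6.34% and 8.81% without S100a4. Itgb1 was in 59.6% and 76.6% against 7.50% and 13.8%. Ly6c2 was in 11.5% and 18.8% of the S100a4-high cells. Cd44 was in 53.3% of CKO and 34.5% of control cells with 3 to 9 S100a4 UMIs. With 20 or more it was in 65.2% and 22.2%, against 4.58% and 10.8% without S100a4. The naive marker Ccr7 was in 19.2% and 32.8% of cells, against 65.3% and 71.3%. Naive transcripts were still common, with at least 1 of 4 naive markers in 42 CKO and 56 control cells. These markers summed to 588 and 702 CPM, against 1918 and 1661 without S100a4. Lef1, 1 of the 4, was in 52.2% and 77.8% of cells with 20 or more S100a4 UMIs, against 93.1% and 90.0% without S100a4. UMIs of genes of other blood lineages (Cd79b, Hba-a1, Hbb-bs, Ppbp, Pf4, Lyz2, Tyrobp, Klre1, Klrb1c) occurred in 11 CKO and 4 control cells. The 5 B cell markers summed to 21.9 CPM in CKO, all from Cd79b, and 0 in control, and the 3 erythroid markers to 37.3 and 0 CPM.

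**Figure D2:**
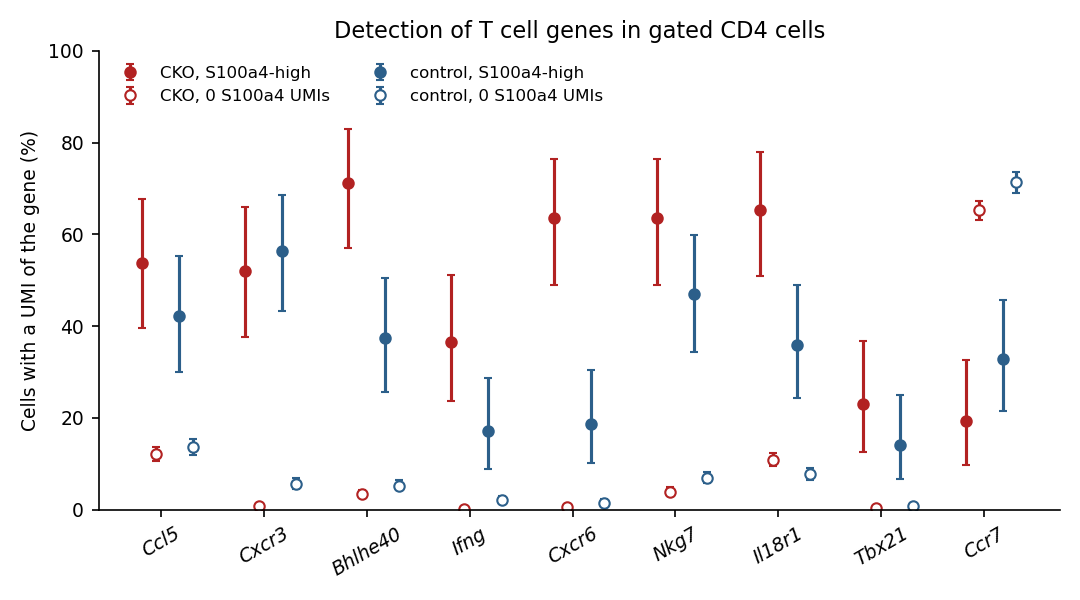
Percent of cells with at least 1 UMI of each gene (y axis) in S100a4-high CD4 cells (filled) and in CD4 cells with 0 S100a4 UMIs (open), for CKO (red) and control (blue), with exact 95% intervals. Cxcr6 stands at 63.5% in CKO and 18.8% in control S100a4-high cells, and Ccr7 is lower in S100a4-high cells than in the cells without S100a4 in both libraries.

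S100a4-high cells were set against CD4 cells with 0 S100a4 UMIs within each library (1986 CKO and 1567 control cells), as a description of what they share beyond the gate. Of 2704 genes with at least 20 UMIs in the gated cells of each library, 164 were at least 2-fold higher in both (6.07%) and 9 at least 2-fold lower in both (0.333%). That filter favours genes that are high in the gated cells. Leading genes ranked by the lower of the 2 ratios were Lgals3, a galectin (305 and 68.7 CPM in CKO and control, against 1.05 and 0.908 without S100a4), S100a6, a neighbour of S100a4 on chromosome 3 (1676 and 1329 against 9.21 and 28.4), and Cxcl10, an interferon-induced chemokine (85.5 and 81.6 against 1.70 and 1.92). Cxcl10 came from 5 CKO and 10 control cells, with 19 of 39 and 15 of 38 UMIs in a single cell. Ccr2, a receptor for inflammatory chemokines, was next, with 167 and 45.1 against 0.566 and 1.51 CPM. The list went on with Il18rap, a subunit of the interleukin-18 receptor, the transcription factor Runx2, the G protein gene Gna15, Ccl5, the myosin Myo1f, the granule protein Nkg7, the annexin Anxa2, Itgb1, Cxcr3, the calcium pump Atp2b4 and the galectin Lgals1. Their log2 ratios over the cells without S100a4 ran from 4.27 for Lgals1 to 8.20 for Ccr2 in CKO. In control they ran from 3.48 for Lgals1 to 6.24 for Lgals3.

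Of the 9 genes at least 2-fold lower in both libraries, 5 are on the naive and quiescence list (Lef1, Foxp1, Dapl1, Satb1 and Nsg2) and 4 are not. Among genes with at least 1000 UMIs in the cells without S100a4 of each library, a minimum chosen after the values were seen, the lowest included Dapl1 (63.6 and 60.1 CPM in CKO and control, against 526 and 387), Igfbp4 (116 and 21.5 against 720 and 378), Ly6c1, Atp1b1, Itm2a, Pdk1 and Pik3ip1. Ly6c1 has a near-identical neighbour, Ly6c2, and reads may be split between them. Of 17 naive and quiescence genes measured in this comparison, those 5 were at least 2-fold lower in both libraries, against 0.333% of all genes measured, and 0 were higher. The median log2 ratio of that list was -0.86 in CKO and -0.71 in control, against 0.26 and 0.29 over all genes measured.

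The share of S100a4-high cells among gated CD4 cells was 2.50% in CKO (52 of 2078, 1.87 to 3.27) and 3.83% in control (64 of 1673, 2.96 to 4.86). Their ratio was 0.654 (0.445 to 0.958). Leaving out cells with UMIs of Cd79b, Ms4a1, Lyz2, Tyrobp, Klrb1c, Ncr1, Klre1, Trdv4, Trgv2, Hba-a1, Ppbp or Jchain gave a ratio of 0.554. This list is not that of the lineage genes named above, and it left 42 CKO and 61 control cells. Leaving out cells over 15000 UMIs gave 0.637. Of all kept cells the S100a4-high cells made up 0.679% and 0.954%, a ratio of 0.712 (0.484 to 1.04). The interval also held 1 with at least 3 S100a4 UMIs (0.729, 0.483 to 1.10) and after thinning (0.787, 0.465 to 1.33). That thinning came before gating, so cells that lost all UMIs of an excluded gene could enter. The direction turned with the exclusion of Trdc, the constant gene of the delta receptor chain. Without that exclusion 34 further CKO cells and 0 control cells met the gate, and the shares became 3.91% (86 of 2201) and 3.72% (64 of 1719), a ratio of 1.05 (0.751 to 1.47). This setting was chosen after seeing the data. Trdc UMIs were thus found in 39.5% of CKO cells that met the rest of the gate (29.2 to 50.7) and in 0% of control cells (0 to 5.60). In cells with 0 S100a4 UMIs the shares were 4.10% and 2.73%, and in B cells 1 of 55 and 0 of 51. After thinning, 18.6% of the CKO cells kept a Trdc UMI. The source of the Trdc UMIs was not tested.

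Receptor genes were read in the 34 CKO cells. Trac, the alpha constant gene, was detected in 97.1% of them, the beta constant gene Trbc2 in 100% and Tcrg-C1, a gamma constant gene, in 20.6%. In the 75 CKO cells with Trdc and S100a4 but no Cd4 UMI, Trac was found in 52.0%, Trbc2 in 96.0% and Tcrg-C1 in 74.7%. Detection of Trbc2 thus differed little between these cells, while its level was 2999 CPM in the 34 cells and 1463 CPM in the 75. The 5 label markers were detected in the 34 cells and in the 52 gated CKO cells at 52.9% and 53.8% for Ccl5, 64.7% and 51.9% for Cxcr3, 41.2% and 36.5% for Ifng, 79.4% and 63.5% for Cxcr6, and 58.8% and 71.2% for Bhlhe40. Itgb1 was found in 82.4% of them and in 59.6% of the gated CKO cells. The median number of Trdc UMIs was 2 in the 34 cells and 7 in the 75 cells without Cd4.

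**Figure D3:**
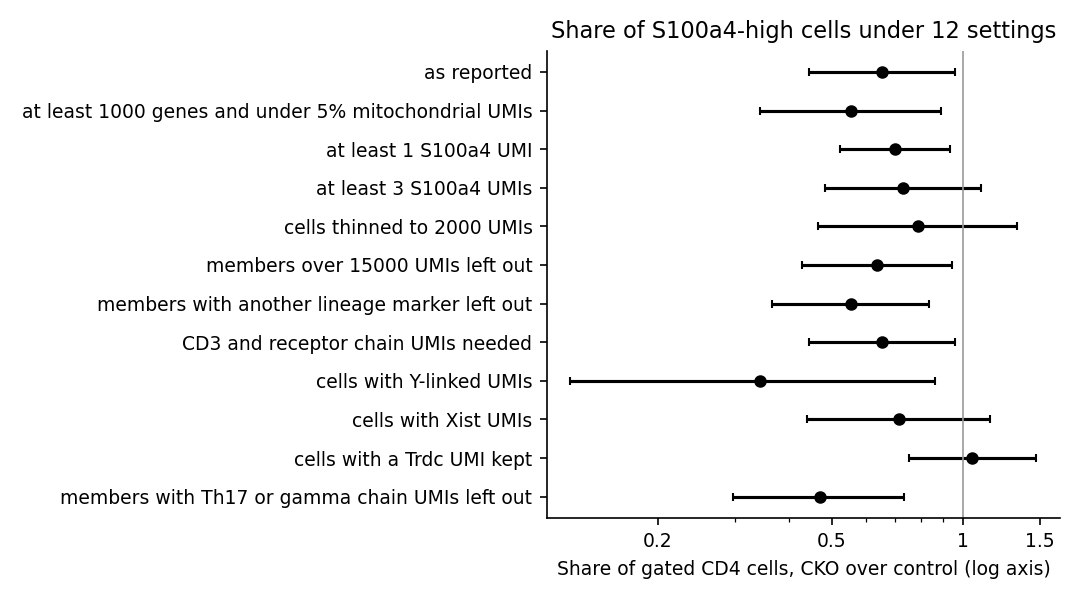
Ratio of the share of S100a4-high cells among gated CD4 cells, CKO over control (x axis, log scale), under 12 settings, with exact 95% intervals from counting error. Keeping cells with a Trdc UMI gives 1.05, and the other settings lie between 0.343 and 0.787.

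CKO and control S100a4-high cells were then compared gene by gene. Of 3871 genes with at least 30 UMIs over both libraries, 88 were at least 2-fold higher in CKO (2.27%) and 100 at least 2-fold lower (2.58%). The interval of the ratio lay above 0 on the log2 scale for 235 genes (6.07%) and below 0 for 261 (6.74%). A higher ratio was found for 1935 of the 3871 and a lower one for 1936. The median log2 ratio over all of them was -0.00037. In cells thinned to 2000 UMIs only 582 genes reached 30 UMIs. List medians given after thinning thus rest on fewer genes than the counts beside them. UMIs of 1 cell share that cell's state, so these intervals are narrower than the spread between cells.

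Th1 and cytotoxic effector genes were mostly higher in CKO. Of 19 measured, 13 had a higher and 6 a lower ratio, and the interval lay above 0 for 10 and below for 2, against 6.07% and 6.74% of all genes. The median log2 ratio was 0.72. Cxcr6 (chromosome 9, 123806475 to 123811760) had 105 UMIs in 33 CKO cells and 24 in 12 control cells, 230 against 51.5 CPM, a log2 ratio of 2.16 (1.51 to 2.87). Klrg1 (chromosome 6, 122270596 to 122282882), an inhibitory receptor of terminal effector T cells, had 39 UMIs in 10 CKO cells and 8 in 4 control cells, a log2 ratio of 2.32 (1.20 to 3.63). Most cells of both libraries had no Klrg1 UMI. Il18r1, the other subunit of the interleukin-18 receptor, had 96 UMIs in 34 CKO and 41 in 23 control cells (1.26, 0.72 to 1.82). Ifng had 47 UMIs in 19 cells and 28 in 11 (0.78, 0.07 to 1.51). Nkg7 had 357 and 222 UMIs (0.72, 0.47 to 0.96), Bhlhe40 125 and 66 (0.95, 0.51 to 1.41), and Ccl5 1572 and 1250 (0.36, 0.25 to 0.47), with 243 and 249 of the Ccl5 UMIs in a single cell of each library. Gzma, a granzyme gene, had 51 UMIs in 6 CKO cells and 6 in 1 control cell. Cxcr3 differed little, with 77 and 102 UMIs and an interval from -0.82 to 0.07, and Il2rb had 87 and 92. Ly6c2 was lower in CKO, with 14 and 53 UMIs (-1.89, -2.85 to -1.02).

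Some of these ratios changed sign with the cells used. Values of single genes under other settings, here and below, had no UMI minimum and carry no interval. Some of them can rest on few UMIs. Among cells with Y-linked UMIs and none of Xist (8 CKO and 15 control cells), the list median was -0.73, Ccl5 stood at -5.61 and Nkg7 at -1.53. With 1000 or more genes and mitochondrial UMIs below 5%, a stricter cell filter (40 and 36 cells), Gzma stood at -0.75 and Ccl5 at -0.60. In cells thinned to 2000 UMIs before gating (31 and 32 cells), Bhlhe40 stood at -0.047. Cxcr6 stayed between 1.46 and 2.95 and Klrg1 between 1.22 and 2.73 under every setting that gave a value.

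Receptors that guide T cells to tissues differed in both directions. Ccr2 (chromosome 9, 124101950 to 124113557) had 76 UMIs in 29 CKO cells and 21 in 13 control cells, a log2 ratio of 1.89 (1.17 to 2.66). Ccr4, a receptor of skin-homing and Th2 cells, had 27 UMIs in 15 CKO and 5 in 4 control cells (2.46, 1.07 to 4.20). Ccr7, which guides cells to lymph nodes, had 21 UMIs in 10 CKO and 83 in 21 control cells, 31 of the 83 in a single cell (-1.95, -2.72 to -1.25), and it stood at 0.83 with the stricter cell filter. Itgb1 (chromosome 8, 128685654 to 128733200), the beta1 integrin, was lower in CKO, with 154 UMIs in 31 cells against 300 in 49 (-0.93, -1.22 to -0.65). Rgs1, a regulator of G protein signalling found in tissue-resident T cells, had 249 and 155 UMIs (0.72, 0.42 to 1.01), and its relative Rgs2 had 38 and 90 (-1.21, -1.80 to -0.65). The 11 measured homing and chemokine receptor genes had a median of -0.18, with 4 higher, and of 0.55 after thinning.

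S100, annexin and galectin genes, which with Vim and Crip1 make up a cytoskeletal and motility set of memory T cells, were higher in 14 of 16 measured, leaving out S100a4, which chose the cells. The interval lay above 0 for 10 and below for 0, against 6.07% and 6.74% of all genes. The median log2 ratio was 0.47, and it lay between 0.33 and 0.56 under the settings tried. Lgals3 had 139 UMIs in 25 CKO cells and 32 in 10 control cells (2.15, 1.59 to 2.75). Lgals1 had 1184 and 602 (1.01, 0.86 to 1.15) and was detected in 51 of 52 CKO and 54 of 64 control cells. Vim had 619 and 395 UMIs (0.68, 0.49 to 0.87), and Crip1 1592 and 985 (0.72, 0.61 to 0.84). S100a6 had 764 and 619 (0.33, 0.18 to 0.49), with 137 of the control UMIs in a single cell. Among cells with Y-linked UMIs Lgals3 stood at -1.69 and S100a6 at -0.22, and with the stricter cell filter S100a6 stood at -0.075. CKO cells held more S100a4 UMIs, and the list was not matched for them. With 3 to 9 S100a4 UMIs, Lgals3 had 38.3 CPM in CKO and 54.4 in control. It had 329 and 52.1 with 10 to 19, and 450 and 198 with 20 or more. In the same order, Lgals1 had 1532 and 895, 2897 and 1741, and 3233 and 2459. S100a6 had 1561 and 722, 631 and 1011, and 2192 and 3459.

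The highest ratios belonged to genes detected in few cells. Ifitm1 had 157 UMIs in 4 CKO cells, 142 of them in a single cell, and 0 in control, so it was at least 53.5-fold higher against a floor of 3 counts in the control library. Its relatives Ifitm3 (125 UMIs in 11 cells against 9 in 2) and Ifitm2 (54 in 11 against 7 in 4) had log2 ratios of 3.83 and 2.98. These membrane proteins restrict viral entry. Tmem176b had 47 UMIs in 10 CKO cells and 1 in 1 control cell (5.59, 3.04 to 10.92), and Tmem176a 52 in 13 and 13 in 2 (2.03, 1.13 to 3.03). Actn2, an actinin gene, had 64 UMIs in 21 CKO cells and 6 in 2 control cells (3.45, 2.25 to 4.95). Acsbg1, a fatty acid ligase, had 32 in 14 and 4 in 4 (3.03, 1.54 to 4.99). The 11 CKO cells with a Th17 marker held 72.3% of the Tmem176b UMIs, 71.9% of those of Acsbg1 and 57.8% of those of Actn2. With cells that had Th17 or gamma chain UMIs left out, Acsbg1 stood at 0.97 and Tmem176b at 4.26. Of 5 measured Th17 genes 4 were higher, with a median of 0.92. After thinning, with fewer genes measured, the list median was -0.47, which is the value of Rora, a gene of that list. Cd7, a T cell surface protein, had 94 UMIs in 22 CKO and 16 in 10 control cells (2.59, 1.81 to 3.45), and Serpinb1a, a protease inhibitor, 27 and 4 (2.79, 1.27 to 4.76). Igfbp4 had 53 UMIs in 8 cells against 10 in 6 (2.44, 1.45 to 3.58). Cd74, the invariant chain of class II presenting cells, had 39 in 10 against 8 in 7 (2.32, 1.20 to 3.63). In thinned cells Ifitm2 stood at -0.95 and Cd74 at -2.89.

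**Figure D4:**
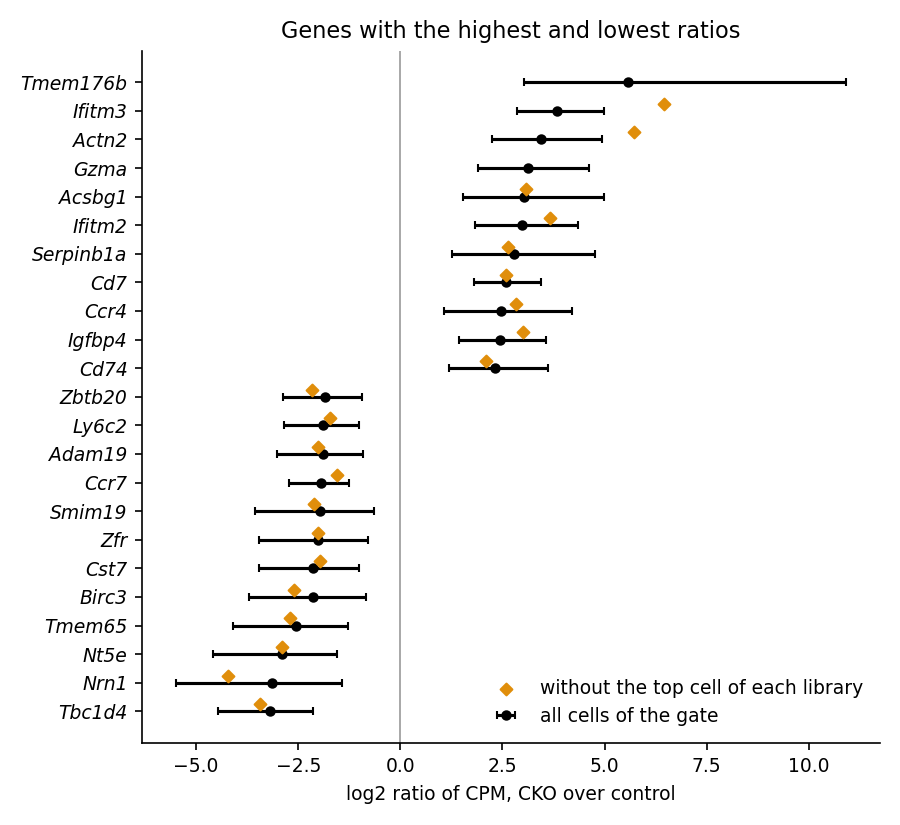
Log2 ratio of CPM, CKO over control (x axis), of the genes with the highest and lowest ratios in S100a4-high cells (y axis), with exact 95% counting intervals, and the ratio without the cell of each library with the most UMIs of the gene (diamonds). Gzma and Tmem176b have no diamond because no control UMI remains, and Ifitm1 is not drawn because the control library has 0 UMIs.

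Follicular helper genes were lower in CKO. All 7 measured had a lower ratio, 6 with an interval below 0, against 1936 and 261 (6.74%) of all 3871 genes, and the median was -0.99 (between -1.33 and -0.72 under the settings tried). Tbc1d4 (chromosome 14, 101442360 to 101609191), a GTPase-activating protein that regulates glucose transporter traffic, had the lowest ratio among the ranked genes. It had 8 UMIs in 7 CKO cells and 75 in 25 control cells, 17.5 against 161 CPM, a log2 ratio of -3.20 (-4.46 to -2.15). Izumo1r, a folate receptor family gene, had 60 and 135 UMIs (-1.14), Tox, a transcription factor, 28 and 58 (-1.02), and Slamf6, an adhesion receptor, 82 and 166 (-0.99). The defining follicular markers were found in few cells. Cxcr5 was detected in 1 CKO and 5 control cells (7.81% of control, against 1.21% without S100a4) and Bcl6 in 0 and 3. Pdcd1, the receptor PD-1, was in 5 and 10 cells (9.62% and 15.6%), against 1.11% and 1.79% of cells without S100a4. Other genes at the low end included Nt5e, the ectoenzyme CD73 that makes adenosine (5 UMIs in 5 CKO cells and 38 in 17 control cells, -2.89), Nrn1 (3 in 2 and 27 in 10, -3.14), Cst7, a cystatin (8 and 36, -2.14), Adam19, a metalloprotease (11 in 9 and 42 in 27, -1.90), Tmem65 (6 and 36, -2.55) and Zbtb20, a zinc finger repressor (13 and 48, -1.85). Birc3, an inhibitor of apoptosis, Smim19 and Zfr had log2 ratios of -2.14, -1.97 and -2.02. In thinned cells they stood at 0.046, 0.78 and 1.05, without a UMI minimum or interval, so a change of direction was not shown.

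Costimulatory and receptor signalling genes differed in both directions. Of 9 TNF family genes 6 had a lower ratio and 3 a higher one. The interval lay below 0 for 4 and above for 1, against 6.74% and 6.07% of all genes. Their median was -0.77, which turned to 0.22 with the stricter cell filter and to 0.28 among cells with Y-linked UMIs. Cd27, a costimulatory receptor, had 38 UMIs in 18 CKO and 87 in 33 control cells (-1.16, -1.75 to -0.60). Tnfrsf4, encoding OX40, had 55 and 96 UMIs (-0.77), and it stood at 0.19 among cells with Y-linked UMIs. Ctla4, the inhibitory receptor, had 63 UMIs in 23 cells against 113 in 35 (-0.81, -1.28 to -0.35). In the T cell receptor signalling list, 14 of 26 genes were lower and 12 higher, near the even split over all genes, with a median of -0.07. The interval lay below 0 for 9 and above for 3, against 6.74% and 6.07% of all genes. Cd247, the zeta chain, had 62 and 133 UMIs (-1.07, -1.53 to -0.62), the kinase Fyn 71 and 123 (-0.76) and Malt1 50 and 76 (-0.57). Lck, the kinase that starts receptor signalling, ran the other way with 329 and 280 UMIs (0.26, 0.03 to 0.50). In thinned cells Fyn stood at 0.29, and among cells with Y-linked UMIs Lck stood at -0.14. Of 22 AP-1 and early response genes 14 were lower, with a median of -0.18 (0.04 with Trdc cells kept). Their interval lay below 0 for 10 and above for 2, against the same 6.74% and 6.07% of all genes. Dusp10, a phosphatase of the stress kinases, had 16 and 54 UMIs (-1.72, -2.63 to -0.90), Tnfaip3, a brake on NF-kappaB, 113 and 211 (-0.87, -1.21 to -0.53), and Egr1 41 and 22 (0.93, 0.15 to 1.75).

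The remaining lists differed less or rested on few genes. Of 74 oxidative phosphorylation genes 54 had a higher ratio, 9 with an interval above 0 (against 6.07% of all genes) and 0 below, with a median of 0.13. In CD4 cells without S100a4 UMIs that median was 0.16, and in thinned S100a4-high cells it was -0.03. Of 9 cell cycle genes 7 were higher, with a median of 0.64, in cells chosen to lack Mki67. It was -0.07 with the stricter filter and -0.24 among cells with Xist UMIs. Genes of the Sm core, whose proteins PRMT5 methylates, and of the SMN complex, which assembles them, had a median of 0.16 over 11 measured (-0.33 after thinning), with 0 intervals off 0 in either direction. Prmt1 and the PRMT5 partners Clns1a and Riok1 were the measured genes of the arginine methyltransferase list of 13, and none had an interval off 0. Common gamma chain signalling genes had a median of -0.0041, whose sign changed with the setting, with Socs1 (39 and 14 UMIs, 1.51) and Cish (36 and 16, 1.20), both feedback inhibitors of cytokine receptors, higher in CKO. Interferon response genes had a median of 0.21, with 15 of 23 higher, and of -0.17 after thinning. Bcl2, the survival gene, had 88 and 38 UMIs (1.24, 0.68 to 1.83), with 21 of the CKO UMIs in a single cell, and it stood at -0.11 among cells with Y-linked UMIs.

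S100a4-high cells were mixed in both libraries. Cells with Ccl5 UMIs (28 CKO and 27 control) also had Nkg7 in 23 and 18, Cxcr6 in 21 and 8 and Cxcr3 in 19 and 18 cells. Among those with Ccl5, the log2 ratio of Ccl5 itself was 0.03, of Cxcr6 1.86 (1.04 to 2.77), of Itgb1 -1.07 (-1.48 to -0.66) and of Tbc1d4 -3.96 (-6.30 to -2.31). In cells without a Ccl5 UMI (24 and 37), Cxcr6 stood at 2.43 (1.36 to 3.66), Itgb1 at -0.80 (-1.22 to -0.39) and Tbc1d4 at -2.54 (-4.24 to -1.18). These 3 genes thus kept their direction on both sides of the split. S100a6 did not, with -0.43 (-0.64 to -0.23) where Ccl5 was detected and 1.26 (1.01 to 1.51) where it was not. Ifitm3 rested on the cells without Ccl5, with 117 CKO UMIs and 1 control UMI, against 8 and 8 in those with it. Igfbp4 was the reverse, with 45 and 1 UMIs in cells with Ccl5 and 8 and 9 in those without. Only 1 CKO cell had both Ccl5 and Ifitm3 UMIs.

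The same ratios in other gated cells are set side by side, from the same 2 libraries and with no test of a difference. The Maf cells and the CD4 cells with 0 S100a4 UMIs overlap, since a cell can be in both. Cxcr6 was lower in CKO among CD4 cells with 0 S100a4 UMIs (16 against 50 UMIs, -1.96) and among CD4 cells with Maf and at most 1 S100a4 UMI (5 against 36, -1.88). It was higher among S100a4-high CD8 cells (77 against 16, 1.38) and S100a4-high Foxp3+ cells (15 against 4, 1.91). Ifng followed the same pattern in the CD4 cells without S100a4, with 4 CKO and 77 control UMIs (-4.59), and in the Maf cells with 1 and 47. Of Ifng UMIs, S100a4-high CD4 cells held 47 and CD4 cells with 0 S100a4 UMIs 4 in CKO, and 28 and 77 in control. Tbc1d4 was lower in CKO in CD4 cells with 0 S100a4 UMIs (-1.12, -1.35 to -0.89) and in the Maf cells (-1.65, -2.32 to -1.03), but not in the Foxp3+ cells (19 and 15 UMIs, 0.34, -0.71 to 1.42). Lck was higher in CKO by 1.32 (1.27 to 1.37) in CD4 cells without S100a4 and by 1.35 in the Maf cells, against 0.26 in the S100a4-high CD4 cells. Tox had 987 and 750 UMIs in cells without S100a4 (0.08, -0.06 to 0.21), Cd27 0.03 (-0.06 to 0.12) and Slamf6 -0.07 (-0.16 to 0.02). Follicular helper genes had a median of -0.30 in cells without S100a4 (3 of 11 higher) and -1.02 in the Maf cells (0 of 8). They stood at -0.53 in the S100a4-high CD8 cells (0 of 4) and -0.70 in the Foxp3+ cells (1 of 7). In the same order, the Th1 and cytotoxic list had medians of -0.69, -1.72, 0.33 and 0.62. The S100, annexin and galectin list had -0.07, -0.41, -0.06 and 0.36. Maf cells were also rarer in CKO, with 108 cells (5.20% of gated CD4 cells) against 223 (13.3%).

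**Figure D5:**
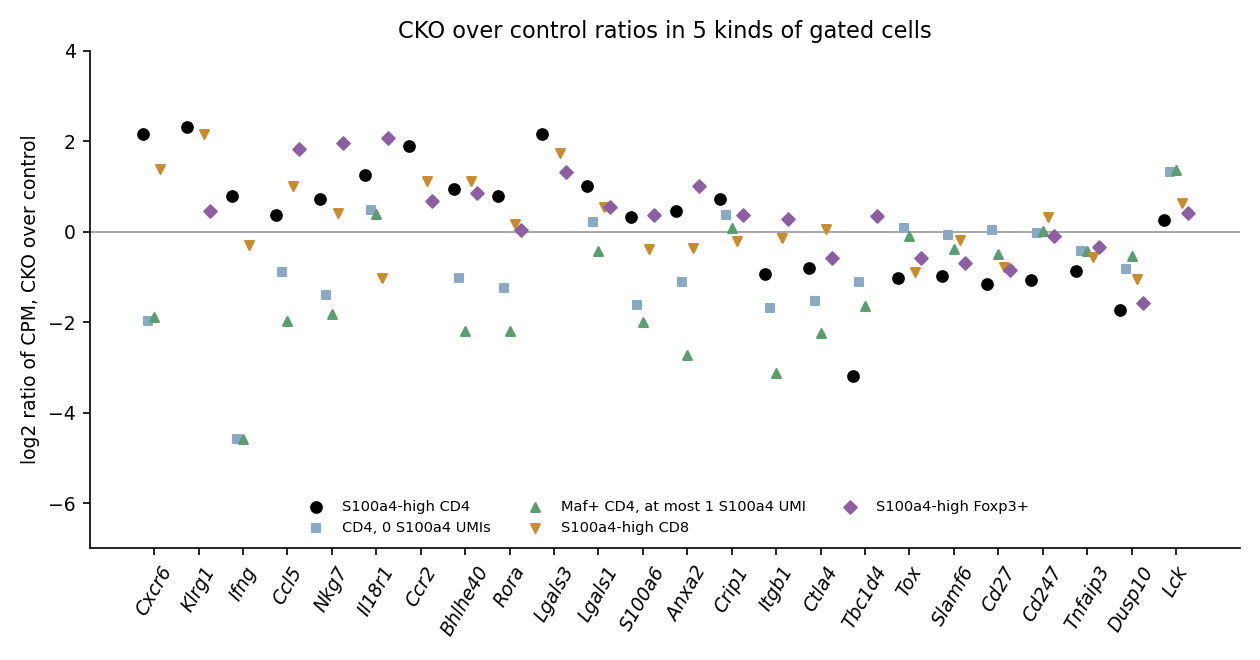
Log2 ratio of CPM, CKO over control (y axis), of named genes (x axis) in 5 kinds of gated cells, shown where at least 30 UMIs were counted over both libraries. The Maf cells and the CD4 cells with 0 S100a4 UMIs share cells. Cxcr6 stands at 2.16 in S100a4-high CD4 cells and at -1.96 in CD4 cells with 0 S100a4 UMIs, and Tbc1d4 is lowest in the S100a4-high CD4 cells.

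Shares were also read by sex-linked UMIs. S100a4-high cells made up 1.31% of gated CD4 cells with Y-linked UMIs in CKO (8 of 609) and 3.83% in control (15 of 392), a ratio of 0.343 (0.126 to 0.863). Among cells with Xist UMIs the shares were 3.77% (34 of 901) and 5.29% (41 of 775), a ratio of 0.713 (0.439 to 1.15). Both ratios lay below 1, and their intervals overlapped.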

How the data were processed

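Splenic CD3+ T cells of 2 pools, Prmt5 CKO and control, were measured by droplet single-cell RNA sequencing. The authors deposited matrices of raw counts, whole numbers of UMIs per gene and barcode, made with Cell Ranger 3.1.0 per the file headers. The submitters' processing notes also name CASAVA 1.8, Seurat 2.3.4 and mm10. Counts were used as deposited and summed per library over gated cells, scaled to all UMIs of the sum (CPM), with exact Poisson intervals. Ratios carry exact conditional binomial intervals and shares Clopper-Pearson intervals, at 95%. PCR duplicates were collapsed by UMI, and intervals cover counting error only. The gated cells, 24 gene lists and tests were chosen with earlier results of these data known.

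Named genes were the 12 with the highest and 12 with the lowest CKO over control ratios among genes with at least 30 UMIs and an interval off 0, the 15 highest and 8 lowest against cells without S100a4, up to 4 per list, the markers, Prmt5, Klrg1 and Lck. Sex-linked, ribosomal and mitochondrial genes, receptor segments, pseudogenes and predicted genes were not ranked. The lowest-gene rule returned genes with 0 UMIs in the gated cells, under the floor of 3 counts, so a minimum of 1000 UMIs was added after seeing the data. Some genes of these lists and rankings are not reported here and were left out of the lists. The 4 alternatives chosen after seeing the data keep cells with Trdc, leave out cells with Th17 or gamma chain UMIs, leave out each gene's top cell, and set that minimum. Cells were thinned to 2000 UMIs in 1 random draw. For ratios under the thinned setting the whole gate, with its exclusions, was applied again to thinned counts, so the cells are not the same. Thinned shares of markers and of Trdc used the cells gated at full depth. Gene positions came from GENCODE vM21 (30766 of 30905 identifiers matched) and promoters from RefSeq on GRCm38.p6. Python 3.11.15, numpy 2.4.6, scipy 1.17.1 and pandas 2.3.3 were used, and edgeR 4.0.16 in R 4.3.3 for scaling factors only. Interval functions were tested on simulated data.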

Additional observations from a re-analysis of the deposited data

Results flagged for a closer look

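For 108 named genes with at least 30 UMIs, the CKO over control ratio in S100a4-high CD4 cells was set beside that in 4 other kinds of gated cells, 331 pairs in all. In 36 pairs, over 24 genes, the ratios had opposite signs and both counting intervals lay off 0. Many of the genes were named because their interval in these same S100a4-high cells lay off 0, which raises that count. The share over all measured genes was not computed. The differences were not tested, since each kind of cell comes from the same 2 libraries. Maf cells with 0 S100a4 UMIs are also among the CD4 cells with 0 S100a4 UMIs. Pairs of those kinds thus share cells and are not separate. Values are log2 ratios of CPM in the other cells, with that of the S100a4-high CD4 cells in parentheses. In CD4 cells with 0 S100a4 UMIs they were Acsbg1 -1.17 (3.03), Cxcr6 -1.96 (2.16), Ifng -4.59 (0.78), Ccl5 -0.89 (0.36), Rgs1 -0.53 (0.72), Rora -1.24 (0.80), Egr1 -0.20 (0.93), Tnfsf8 0.71 (-1.06), Bhlhe40 -1.03 (0.95), Nkg7 -1.40 (0.72), S100a6 -1.62 (0.33), Gna15 -1.26 (0.85) and Anxa2 -1.10 (0.46). In CD4 cells with Maf and at most 1 S100a4 UMI they were Cxcr6 -1.88 (2.16), Ifng -4.59 (0.78), Ccl5 -1.97 (0.36), Rgs1 -0.93 (0.72), Vim -0.37 (0.68), Lgals1 -0.43 (1.01), Rora -2.19 (0.80), Tnfrsf4 0.78 (-0.77), Bhlhe40 -2.19 (0.95), Nkg7 -1.83 (0.72), S100a6 -1.99 (0.33) and Anxa2 -2.74 (0.46). In S100a4-high CD8 cells they were Rgs1 -0.90 (0.72), Crip1 -0.21 (0.72), Egr1 -2.52 (0.93), Bst2 -0.89 (0.62), Il7r -0.59 (0.42), Il18r1 -1.01 (1.26) and S100a6 -0.37 (0.33). In S100a4-high Foxp3+ cells they were Nrn1 2.48 (-3.14), Gapdh 0.37 (-0.19), Cd3e 0.28 (-0.31) and Trac 0.41 (-0.47).

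The same was done for cells with Y-linked UMIs against cells with Xist UMIs, for 42 genes with enough UMIs in both. Opposite signs were found for 3 genes, and the differences were not tested. Ccl5 had 7 CKO and 528 control UMIs in cells with Y-linked UMIs (-5.61) and 1304 and 556 in cells with Xist UMIs (1.27). Nkg7 had 19 and 85 (-1.53) against 250 and 123 (1.06). Ikzf2, a transcription factor of regulatory T cells, had 6 and 65 (-2.81) against 80 and 43 (0.93).

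Cells outside the gate carried a signal of their own. Those that met it except for a Trdc UMI numbered 34 in CKO and 0 in control.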

How the results depend on the processing

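No paired analysis was possible because each group is 1 library, and no replicate could be left out. The share ratio of 0.654 stayed below 1 under 10 of 11 other settings. Its interval lay below 1 under 7 of them and held 1 with at least 3 S100a4 UMIs, after thinning, among cells with Xist UMIs and with Trdc cells kept. It turned to 1.05 with cells that carry a Trdc UMI kept, and was 0.343 among cells with Y-linked UMIs. Requiring CD3 and receptor chain UMIs, 1 of the 7 settings with an interval below 1, kept the same 52 and 64 cells. All settings draw on the same 2 libraries and share cells, so they are not independent. Counts of genes at least 2-fold higher and lower in CKO (88 and 100) were 17 and 27 after thinning, 25 and 46 among cells with Y-linked UMIs, 11 and 7 with at least 100 UMIs per gene, and 2083 and 1759 with at least 1 UMI. The lower count was 47 with a stricter cell filter (1000 or more genes, mitochondrial UMIs below 5%), and the higher count was 55 without cells that had Th17 or gamma chain UMIs. Among the genes past 2-fold the share that was higher was 46.8%, and it was 58.0% with the stricter cell filter, 38.6% after thinning, 35.2% among cells with Y-linked UMIs, 56.8% with Trdc cells kept and 36.9% without Th17 or gamma chain UMIs. Against cells without S100a4, the 164 higher and 9 lower genes became 68 and 3 at a fold of 3 and 85 and 3 with at least 50 UMIs. With the stricter filter 5 were lower. Fewer cells or genes enter most of these settings, and other causes were not tested.

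Of 1186 gene values under other settings 1041 kept direction and size, 119 moved and 26 reversed. These values had no UMI minimum and carry no interval, so a reversal can rest on few UMIs. Requiring CD3 and receptor chain UMIs left the S100a4-high cells unchanged, so its values repeat the main ones. Scaling by edgeR factors (1.00082 and 0.999179), or to UMIs without mitochondrial, ribosomal and receptor genes, changed only the library totals. Every gene ratio then shifts by a constant, and the median of all genes shifted by -0.0024 and -0.012. Gene and list values under both scalings thus nearly repeat the main ones, and the count kept is no measure of robustness. Reversed log2 ratios with the stricter filter were -0.75 for Gzma, 0.83 for Ccr7, -0.60 for Ccl5, 0.89 for Tnfsf8 and -0.075 for S100a6. After thinning they were -0.95 for Ifitm2, -2.89 for Cd74, 0.78 for Smim19, 1.05 for Zfr, 0.046 for Birc3, -0.47 for Rora, 0.29 for Fyn, 0.046 for Il21r, -0.12 for Ndufb7, -0.032 for Atp5h, -0.54 for Rpa2 and -0.047 for Bhlhe40. Among cells with Y-linked UMIs they were -5.61 for Ccl5, -1.69 for Lgals3, -0.11 for Bcl2, 0.19 for Tnfrsf4, -0.37 for Ndufaf4, 2.09 for Tnfsf8, -0.14 for Lck, -0.22 for S100a6 and -1.53 for Nkg7. No setting moved the median of all genes by over 0.1. List medians were read as moved past a change of 0.25, which befell 57 of 378 values. Each was taken over the list genes that passed the UMI minimum in that setting. After thinning 582 genes in all passed it. At 455915 and 465927 UMIs, genes under 30 UMIs were not compared.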
